A study of Mus musculus with 10 samples.

Results

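The genes described here are 8 markers of the fibroblasts and progenitor cells of the adventitia, the outer coat of an artery: Cd34, Scara5, Pi16, Ly6a, Clec3b, Dpt, Cd248 and Dpp4. They were chosen by gene symbol, and each symbol was found on 1 of the 35667 gene rows of the deposited tables. The data are RNA sequencing counts of aorta from C57BL/6 mice aged 12 weeks, in 10 libraries. Of these, 5 were titled as Ovgp1 knockout (KO) and 5 as wild type (WT), and the question named by the series title is whether Ovgp1, which encodes oviductal glycoprotein 1, acts on the wall of the vessel. The genotype field of KO replicate 1 names Ovgp1, but that of KO replicates 2 to 5 names, in turn, Ovgp2 to Ovgp5, and groups were therefore read from the titles. The labels give neither the part of the gene that was removed nor whether each library is an animal of its own, and p-values measure only the spread between these libraries.

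The adventitia is a loose layer of collagen in which fibroblasts lie beside small vessels, nerves, fat and immune cells. Fibroblasts that carry Pi16 and Dpp4 are found around vessels in many tissues, and cells of the adventitia that carry Ly6a (the antigen Sca-1) and Cd34 can give rise to other cells of the vessel wall. None of the 8 genes is restricted to fibroblasts: Cd34 and Ly6a are also made by endothelial cells, Ly6a and Dpp4 by lymphocytes, and Cd248 by pericytes.

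Facts of the whole series bear on each value below. Total counts per library ran from 21242030 to 26694590. Levels are given as CPM, the count scaled to library size by the TMM method. The targeted gene itself had more RNA under the KO label: Ovgp1 had 17.8 to 21.9 CPM there against 1.98 to 4.69 CPM under the WT label, so each direction given here follows labels that the targeted gene goes against. The 5 KO libraries were nearly identical: over 12509 genes, pairs of KO libraries had a chi-square of 1.77 to 3.25 per degree of freedom and pairs of WT libraries 11.0 to 154, where counting error alone gives 1. For that reason a second fit, with the KO counts added up as 1 sample that is taken to vary like WT, stands beside the comparison of 5 with 5 libraries. The mitochondrial genome took 16.2% of counts in WT replicate 1 and 13.2% in WT replicate 3, against 6.75% to 9.59% in the other WT libraries and 7.61% to 7.88% in KO. Smooth muscle genes Acta2 (14722 to 25020 CPM over the WT libraries) and Myh11 (7229 to 9701 CPM) were abundant, while Tagln, another gene of contractile smooth muscle, had 20.8 to 29.3 CPM over all 10 libraries.

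In GRCm38 (GENCODE M21), Cd34 (ENSMUSG00000016494) lies on chromosome 1 from 194938819 to 194961279 and Dpt (ENSMUSG00000026574) on chromosome 1 from 164796644 to 164824266. Scara5 (ENSMUSG00000022032) lies on chromosome 14 from 65666403 to 65764826, Pi16 (ENSMUSG00000024011) on chromosome 17 from 29317680 to 29330593, and Ly6a (ENSMUSG00000075602) on chromosome 15 from 74994877 to 74998031. Clec3b (ENSMUSG00000025784) lies on chromosome 9 from 123150946 to 123157432, Cd248 (ENSMUSG00000056481), which has a single exon, on chromosome 19 from 5068078 to 5070682, and Dpp4 (ENSMUSG00000035000) on chromosome 2 from 62330073 to 62412231. Antisense genes share exonic bases with 3 of the 8: Gm16897 shares 148 bases with Cd34, AC162182.1 shares 222 with Pi16 and Gm13561 shares 232 with Dpp4. Gm16897 had 226 counts and Gm13561 had 9 over the 10 libraries together. Whether reads were counted by strand is not given in the sources used here, and those from the shared bases cannot be told apart.

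RefSeq promoters (GRCm38.p6) were at hand for 4 of the 8 genes, and all 4 are shown. Of these, Cd34 and Dpt passed the test below and Pi16 and Dpp4 did not. Each runs 5′ to 3′ on the gene's strand, from 250 bases before to 50 after the annotated start. The regions are chr1:194938571-194938870 (Cd34, plus strand), chr1:164796413-164796712 (Dpt, plus), chr17:29318632-29318931 (Pi16, plus) and chr2:62412182-62412481 (Dpp4, minus). The Pi16 window lies inside the gene as annotated in GENCODE M21, which starts at 29317680, so the 2 annotations place its start differently. Capitals mark matches, on either strand, to the TATA box (TATAAA), an E-box bound by basic helix-loop-helix factors such as Tcf21 (CAGCTG), the AP-1 motif (TGANTCA), the box read by NF-Y (CCAAT) and the GC box (GGGCGG). Overlapping matches were each kept.
Cd34: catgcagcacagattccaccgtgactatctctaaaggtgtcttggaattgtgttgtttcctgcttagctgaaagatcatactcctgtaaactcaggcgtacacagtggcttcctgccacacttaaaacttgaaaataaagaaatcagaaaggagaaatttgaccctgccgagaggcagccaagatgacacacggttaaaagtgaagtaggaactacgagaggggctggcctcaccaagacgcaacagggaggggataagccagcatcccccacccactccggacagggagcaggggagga
Dpt: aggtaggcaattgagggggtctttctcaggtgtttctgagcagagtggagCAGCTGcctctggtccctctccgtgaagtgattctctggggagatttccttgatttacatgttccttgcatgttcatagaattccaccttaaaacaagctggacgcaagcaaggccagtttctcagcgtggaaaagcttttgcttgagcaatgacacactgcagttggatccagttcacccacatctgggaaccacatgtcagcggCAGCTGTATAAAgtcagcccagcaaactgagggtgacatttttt
Pi16: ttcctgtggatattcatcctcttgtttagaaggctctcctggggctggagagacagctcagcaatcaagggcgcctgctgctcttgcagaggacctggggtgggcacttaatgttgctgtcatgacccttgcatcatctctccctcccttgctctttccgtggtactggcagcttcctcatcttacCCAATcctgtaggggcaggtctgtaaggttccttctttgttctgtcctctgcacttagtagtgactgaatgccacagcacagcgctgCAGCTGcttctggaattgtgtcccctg
Dpp4: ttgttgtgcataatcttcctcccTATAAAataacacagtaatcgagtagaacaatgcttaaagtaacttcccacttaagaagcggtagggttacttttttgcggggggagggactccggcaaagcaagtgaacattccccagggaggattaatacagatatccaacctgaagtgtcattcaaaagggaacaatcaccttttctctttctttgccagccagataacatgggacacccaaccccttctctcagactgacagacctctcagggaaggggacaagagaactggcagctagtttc
The Dpt promoter held CAGCTG at 2 places, at positions -200 and 6 from the start, and TATAAA at position 12, next to the second. Pi16 held CAGCTG at 23 and CCAAT at -64, and Dpp4 held TATAAA at -227. In the Cd34 window none of the 5 motifs was found. Of 32851 promoters of this length, 16.3% held CAGCTG, 13.6% TATAAA, 7.81% TGANTCA, 37.4% CCAAT and 35.7% GGGCGG.

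The levels of the 8 genes were compared with each other as CPM per kilobase of merged exons. Clec3b ranked first in each of the 10 libraries, at 136 to 205 CPM per kilobase over the WT libraries, and Dpp4 ranked last in each, at 0.176 to 0.267. Ly6a (42.5 to 156) and Dpt (81.7 to 116) followed Clec3b and changed places between WT libraries. Pi16 came after these 3 in each library, at 29.2 to 33.5. Cd34 (12.0 to 15.6), Scara5 (9.52 to 14.8) and Cd248 (5.48 to 9.56) came next, and over the WT libraries Cd34 overlapped Scara5 and Scara5 overlapped Cd248. The steps from Dpt to Pi16, from Pi16 to Cd34 and from Cd248 to Dpp4 were larger than the spread over the WT libraries. KO libraries gave the same order except that Dpt, at 117 to 127 CPM per kilobase, lay above Ly6a, at 66.3 to 71.2.

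**Figure D1:**
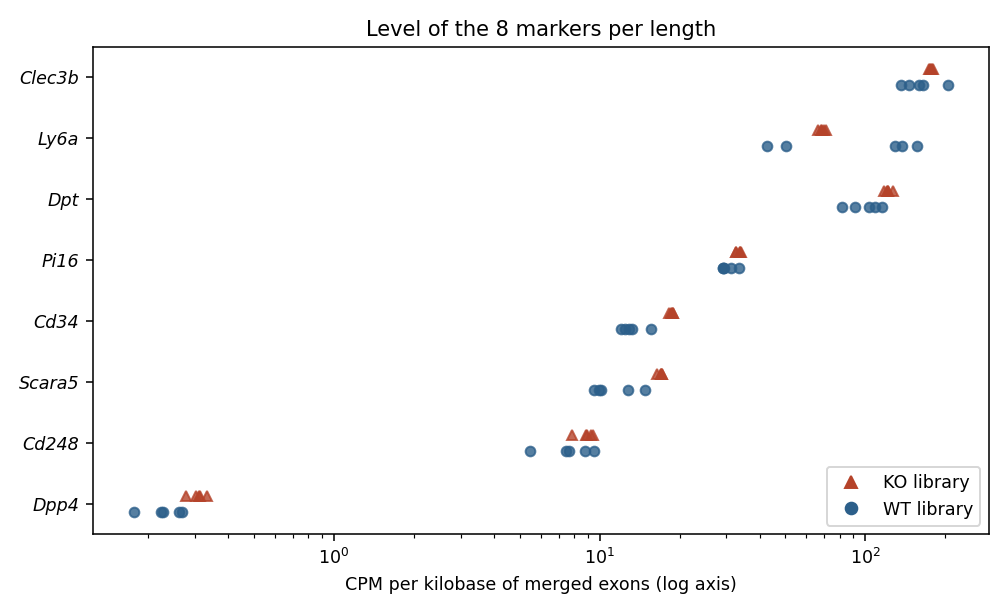
Level of each of the 8 genes as CPM per kilobase of merged exons (log axis), with 1 point per library. Dpp4 sits far below the other 7, and the 5 WT points of Ly6a span 42.5 to 156 while its KO points lie between 66.3 and 71.2.

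Between the groups, 3 of the 8 genes rose under the KO label and 0 fell in the comparison of 5 with 5 libraries (edgeR quasi-likelihood test, adjusted p under 0.05 over all 15710 genes tested). Over all genes tested, 6.84% were called higher and 7.43% lower. The 3 were Scara5, Cd34 and Dpt, at 1.48-, 1.41- and 1.21-fold. At an unadjusted p under 0.05, edgeR and DESeq2 each had 5 members higher and 0 lower. The share over all genes was not computed at that threshold, here or for the lists below. Such counts therefore cannot be set against a background. At an adjusted p under 0.05, DESeq2 called 4 members higher and 0 lower, beside 1478 and 1497 of all genes. By limma-voom 7 members were called higher and 1 lower, beside 2995 and 3482 of all genes. The log2 difference was positive for 7 of the 8 members, as for 45.8% of all genes tested, and its median was 0.24, against -0.02 over all genes tested. For 4 of the 8 the lowest KO library exceeded the highest WT library, as for 7.38% of genes tested, and for 0 of the 8 KO lay wholly below WT, against 7.22%. With KO as 1 sample 0 of the 8 passed, as against 0.0446% of genes tested, and 2 of them, Cd34 and Scara5, had an unadjusted p under 0.05, against 3.72% of genes tested. In RNA of the aorta as a tissue, more cells of a type and more RNA per cell cannot be told apart.

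**Figure D2:**
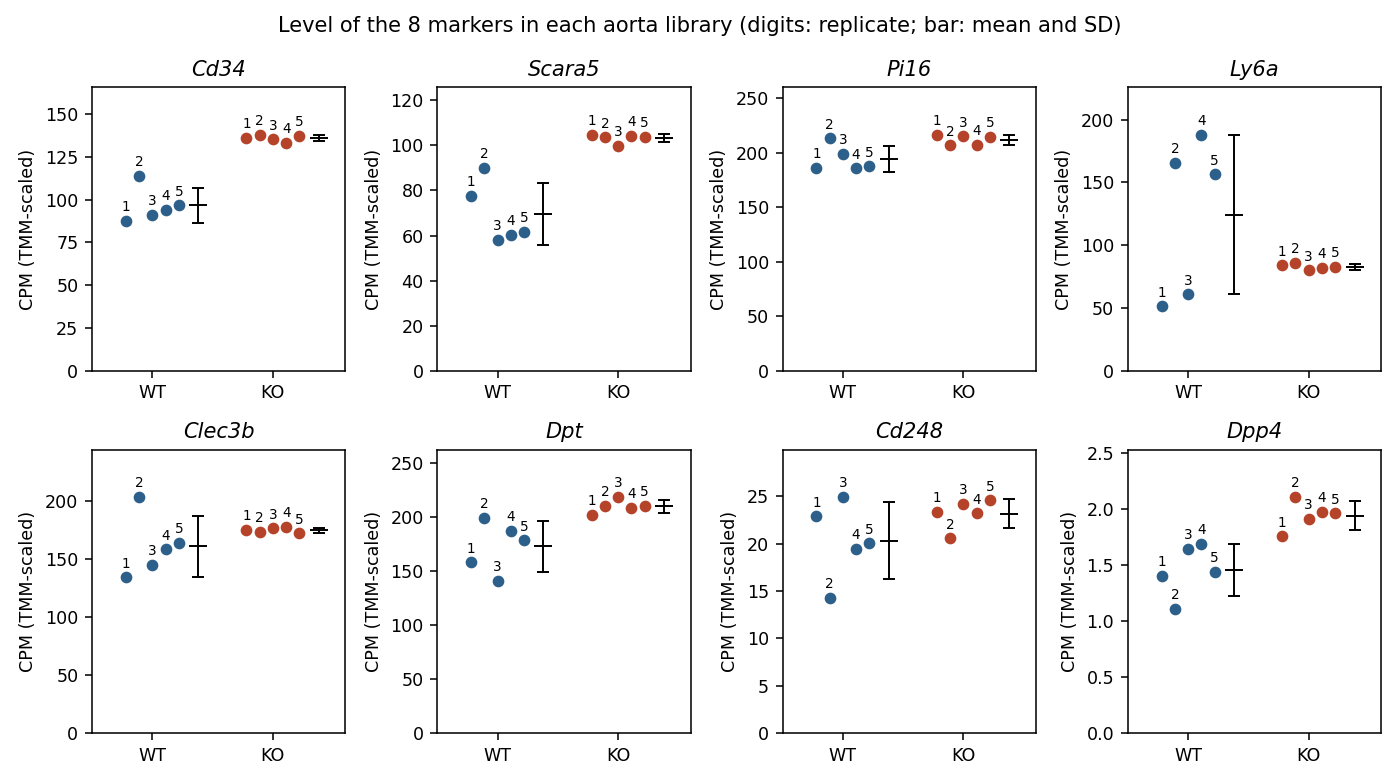
CPM of each gene in each library, with WT and KO side by side, replicate numbers above the points, and the mean and SD as bars. KO points lie above every WT point for Cd34, Scara5, Dpt and Dpp4, and Ly6a shows 2 low and 3 high WT libraries on either side of KO.

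Of the surface markers, Cd34, a sialomucin of adventitial, endothelial and blood progenitor cells, had 136, 138, 135, 133 and 137 CPM in KO replicates 1 to 5. It had 87.6, 114, 91.0, 94.2 and 96.6 CPM in WT replicates 1 to 5. The groups did not overlap, and WT replicate 2 came nearest to KO. The fold was 1.41 (95% interval 1.27 to 1.55; log2 difference 0.49, SE 0.065, adjusted p = 0.000806). The exact permutation p (two-sided) was 0.00794, the smallest that 252 splits can give. Here and for each gene below, that test takes the 10 libraries as separate samples. The nearly identical KO libraries may not be separate samples, and the exact p would then be too small. With KO as 1 sample the interval was 1.10 to 1.79 (unadjusted p = 0.0127, adjusted p = 0.999). Leaving out any 1 of the 10 libraries kept the call in the 5 against 5 fit. With a KO library left out, the log2 difference stayed at 0.49 to 0.50. The KO libraries were nearly identical, so those fits cannot show how far KO varies.

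Ly6a, which encodes the membrane-anchored antigen Sca-1, varied more among the WT libraries than any other of the 8 genes. It had 166, 188 and 156 CPM in WT replicates 2, 4 and 5 but 51.2 and 60.8 CPM in WT replicates 1 and 3. KO replicates 1 to 5 had 84.0, 85.8, 79.9, 81.8 and 82.9 CPM, between those sets. The highest WT value was 3.67 times the lowest, against 1.07 times in KO. The groups overlapped. The fold was 0.666 (95% interval 0.400 to 1.11; log2 difference -0.59 with SE 0.33; edgeR adjusted p = 0.272; exact permutation p = 0.341). WT replicates 1 and 3 were also the 2 with the highest mitochondrial share. Without both of them, the log2 difference of Ly6a was -1.02 with an adjusted p of 4.86e-07, in a fit that called 13.6% of genes lower. Those were its 2 lowest WT libraries, so leaving them out was bound to lower the difference. The call is therefore not a separate test of a fall.

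The Ly6 family lies in a cluster of similar genes, and part of the Ly6a sequence is shared. Of the 36-base words in its annotated transcripts, 28.8% also occur in transcripts of another gene, mainly Ly6c1 and Ly6i, and 19.0% of its 50-base words do. For the other 7 members that share was at most 6.18% at 36 bases. Counts of Ly6a may thus hold reads of a relative, or lack reads that fit both. Ly6c1 and Ly6e, named here after their values were seen, had the same 2 low WT libraries. Ly6c1 had 27.3 and 31.0 CPM in WT replicates 1 and 3, 78.0 to 115 in the other WT libraries and 46.6 to 50.2 in KO. Ly6e had 73.7 and 72.2 CPM in WT replicates 1 and 3, 120 to 131 in the others and 108 to 109 in KO.

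Endothelial cells make Ly6a and Cd34 too, and 12 of 12 endothelial markers were detected and tested. Their summed level was 320 and 264 CPM in WT replicates 1 and 3, 694 to 874 CPM in WT replicates 2, 4 and 5, and 429 to 446 CPM in KO. Pecam1 alone gave 405 of the 694 CPM of WT replicate 2. By the mean log2 CPM of the 12 genes, WT replicate 2 (4.27) lay just below KO (4.30 to 4.36), WT replicates 1 and 3 lowest (3.82 and 3.29), and WT replicates 4 and 5 highest (5.35 and 5.001). In edgeR 0 of the 12 were called in either direction, beside 6.84% higher and 7.43% lower of all genes tested. At an unadjusted p under 0.05, where no share over all genes was computed, 1 was lower and 0 higher. DESeq2 called 0, beside 1478 higher and 1497 lower of all genes. By limma-voom 5 of the 12 were lower and 0 higher, beside 3482 lower and 2995 higher of all 15710 genes. The endothelial adhesion gene Pecam1 had 143 and 107 CPM in WT replicates 1 and 3, 324 to 405 in the other WT libraries and 155 to 160 in KO. Ly6a and the endothelial sum were thus lowest in the same 2 WT libraries, and the part of endothelial cells in the Ly6a values was not tested. KO values of Cd34 lay above every WT library, and both the endothelial sum and the mean log2 CPM of KO lay within the WT range. The part of endothelial cells in the Cd34 values was not tested either.

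**Figure D3:**
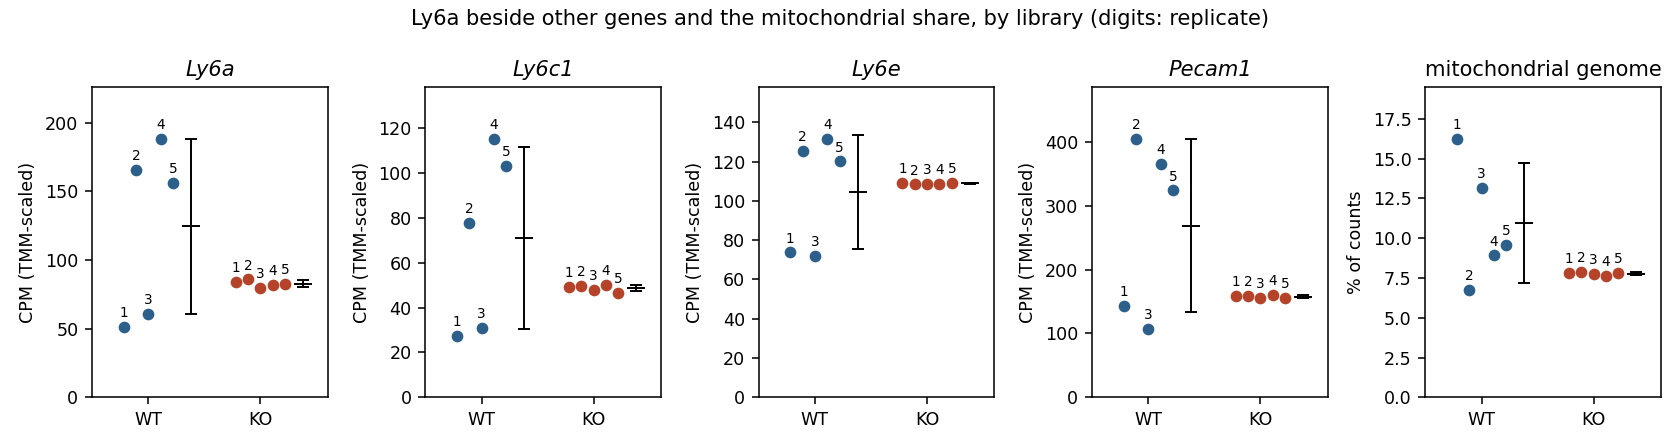
CPM of Ly6a, Ly6c1, Ly6e and Pecam1 and the mitochondrial percent of counts in each library, with the mean and SD as bars. WT replicates 1 and 3 are the lowest WT libraries for the 4 genes and the highest for the mitochondrial share, and KO lies between the low and high WT values of each gene.

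Cd248, the C-type lectin endosialin of fibroblasts and pericytes, had 23.3, 20.6, 24.2, 23.2 and 24.6 CPM in KO replicates 1 to 5 and 22.9, 14.3, 24.9, 19.5 and 20.01 CPM in WT replicates 1 to 5. The groups overlapped, and WT replicate 2 was lowest. The fold was 1.14 (95% interval 0.947 to 1.38; log2 difference 0.19 with SE 0.12; edgeR adjusted p = 0.333; exact permutation p = 0.167). Without WT replicates 1 and 3 the log2 difference was 0.39 and passed (adjusted p = 0.0167), where 13.7% of genes were called higher. Those were the 2 highest WT libraries of Cd248, so leaving them out was bound to raise the difference.

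Scara5, a scavenger receptor that takes up ferritin, had the largest positive log2 difference of the 8. It had 105, 104, 99.9, 104 and 104 CPM in KO replicates 1 to 5, and 77.6, 90.1, 58.0, 60.4 and 61.8 CPM in WT replicates 1 to 5. KO lay above each WT library, and among the WT libraries replicates 1 and 2 were the highest. The fold was 1.48 (95% interval 1.26 to 1.75; log2 difference 0.57, SE 0.11, adjusted p = 0.00710; exact permutation p = 0.00794). With KO as 1 sample the interval was 1.01 to 2.17 (unadjusted p = 0.0451, adjusted p = 0.999). In the 5 against 5 fit the call was kept on leaving out any 1 of the 10 libraries (adjusted p at most 0.0217). As for Cd34, the fits without a KO library cannot show how far KO varies.

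Pi16 and Dpp4 mark the perivascular progenitor state of fibroblasts. Pi16, a peptidase inhibitor of the CAP family, varied least among the WT libraries. It had 217, 207, 215, 207 and 215 CPM in KO replicates 1 to 5 and 186, 213, 199, 186 and 188 CPM in WT replicates 1 to 5. WT replicate 2 lay within the KO range and the other 4 WT libraries below it. The fold was 1.09 (95% interval 1.01 to 1.18; log2 difference 0.13, SE 0.050, adjusted p = 0.119; exact permutation p = 0.0238). It passed without WT replicate 2 (adjusted p = 0.0175), its highest WT library, whose loss was bound to raise the difference.

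Dpp4, a peptidase of the cell surface that trims incretins and chemokines, was scarce. It had 44 to 56 counts per KO library and 26 to 41 per WT library. In CPM, KO replicates 1 to 5 had 1.76, 2.11, 1.91, 1.97 and 1.96 and WT replicates 1 to 5 had 1.40, 1.11, 1.65, 1.69 and 1.44. The groups did not overlap, but the exact 95% Poisson interval of the lowest KO library (1.28 to 2.36 CPM) covered 4 of the 5 WT values. The chi-square per degree of freedom was 0.212 in KO and 0.837 in WT, so neither group varied beyond counting error. The fold was 1.33 (95% interval 1.05 to 1.68; log2 difference 0.41, SE 0.15, adjusted p = 0.0964; exact permutation p = 0.00794). limma-voom called it at the same counts (adjusted p = 0.0410).

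Dpt and Clec3b encode secreted proteins. Dpt, dermatopontin, a matrix protein that binds decorin, had 202, 210, 219, 208 and 210 CPM in KO replicates 1 to 5 and 158, 199, 141, 188 and 178 CPM in WT replicates 1 to 5. The groups did not overlap, though WT replicate 2 lay just below KO replicate 1. The fold was 1.21 (95% interval 1.07 to 1.38; log2 difference 0.28, SE 0.083, adjusted p = 0.0445; exact permutation p = 0.00794). The call did not survive the loss of any single KO library (adjusted p 0.0764 to 0.104), WT replicate 1 (0.0668) or WT replicate 5 (0.0688). With 1 KO library left out, the log2 difference of Dpt was still 0.27 to 0.29. Those fits called 1287 to 1393 genes, against 2242 with all 10 libraries. With KO as 1 sample the interval was 0.893 to 1.65 (adjusted p = 0.999).

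Clec3b encodes tetranectin, which binds plasminogen. It had 176, 174, 177, 178 and 173 CPM in KO replicates 1 to 5 and 135, 204, 145, 159 and 164 CPM in WT replicates 1 to 5. WT replicate 2 lay above KO and the other 4 WT libraries below it. The fold was 1.09 (95% interval 0.945 to 1.25; log2 difference 0.12, SE 0.092, adjusted p = 0.420; exact permutation p = 0.222). Without WT replicate 2, the highest, the log2 difference was 0.23 and passed (adjusted p = 0.0154). Without WT replicates 1 and 3, the 2 lowest, it was 0.01. Each shift was bound to follow from the libraries left out.

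**Figure D4:**
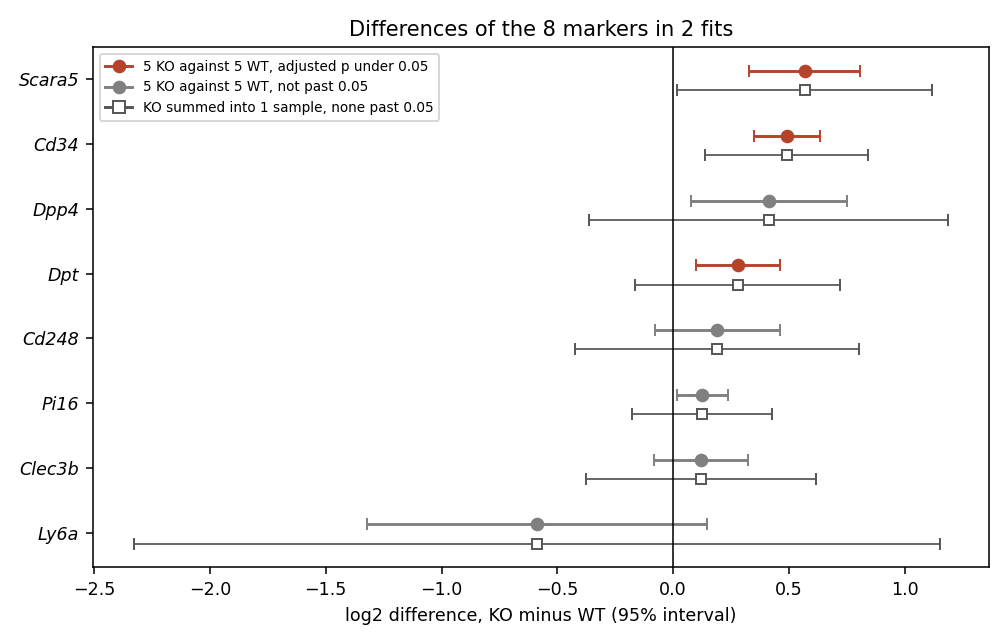
Log2 difference (KO minus WT) of each gene with its 95% interval, from 5 against 5 libraries (circles) and with KO summed into 1 sample (squares). The intervals of Cd34 and Scara5 stay above 0 in both fits, those of Dpt, Dpp4 and Pi16 only with 5 against 5, and with KO as 1 sample the adjusted p of each gene was 0.999.

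The 8 genes did not move as 1 block among the WT libraries. WT replicate 2 was the highest WT library for 5 of them (Cd34, Scara5, Pi16, Clec3b and Dpt) and the lowest for Cd248 and Dpp4, at 70.3% and 76.3% of the WT mean. WT replicate 1 was the lowest for Cd34, Ly6a and Clec3b, and WT replicate 3 for Scara5 and Dpt. The coefficient of variation over WT libraries ran from 6.14% for Pi16 to 51.1% for Ly6a, with the other 6 between 10.6% and 19.9%. Within KO it ran from 1.24% (Clec3b) to 6.76% (Cd248). For 7 of the 8 genes the counts varied more than counting error among the WT libraries, with a chi-square per degree of freedom from 16.9 (Pi16) to 706 (Ly6a), Dpp4 being the exception. In KO that value was under 1 for Cd34, Scara5, Clec3b and Dpp4 and at most 4.34 (Dpt).

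**Figure D5:**
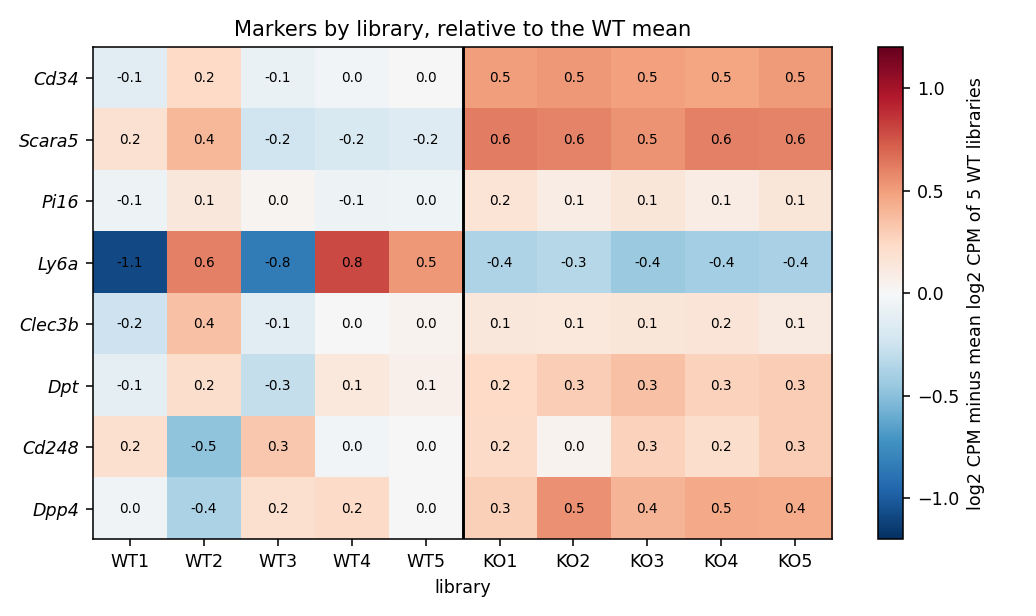
Log2 CPM of the 8 genes in each library minus the mean of the 5 WT libraries. WT replicate 2 is high for 5 genes and low for Cd248 and Dpp4, Ly6a is low in WT replicates 1 and 3, and the 5 KO columns are nearly alike.

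Other genes of fibroblasts were read from lists that were not chosen independently of these data, so their direction is not independent evidence. Of 20 general fibroblast genes, 7 rose and 0 fell under the KO label, beside 6.84% and 7.43% of all genes tested. At an unadjusted p under 0.05, where no share over all genes was computed, 11 were higher and 1 lower. The log2 difference was positive for 15 of the 20 and negative for 5, where 45.8% of all genes tested were positive. Over all 15710 genes, DESeq2 called 1478 higher and 1497 lower, and limma-voom 2995 and 3482. Of the 20 genes, DESeq2 called 8 higher and 0 lower, and limma-voom 13 and 1. Their median log2 difference was 0.27, and 0 passed with KO as 1 sample, with 2 at an unadjusted p under 0.05. The proteoglycan gene Lum had 277 ± 2.54 against 155 ± 17.3 CPM (SD, n = 5 each), with an adjusted p of 5.54e-05. The matrix gene Fbln1 had 137 ± 2.27 against 109 ± 2.74 CPM (adjusted p = 0.000441). Dcn, decorin, had a log2 difference of 0.36, the matrix protease gene Mmp2 0.33 and the actin-severing gene Gsn 0.27. Gsn lost its call without KO replicate 1 or KO replicate 4 (adjusted p up to 0.0530). Ptgis, prostacyclin synthase, was at -0.11 (adjusted p = 0.319). Also negative were Col1a1 at -0.34 (edgeR adjusted p = 0.102), Mfap5 at -0.31 (0.173) and Mfap4 at -0.20 (0.389). Those 3 were named after their values were seen. Pdgfra, the receptor that defines fibroblasts in many tissues and was chosen after its values were seen, had 80.2 ± 1.77 against 83.2 ± 20.4 CPM (adjusted p = 0.846).

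Relative to the mean log2 CPM of these 20 genes in the same library, 3 members changed the sign of their difference and only Cd34 kept groups that did not overlap. Cd34 kept separate groups, at -0.89 to -0.80 in KO and -1.31 to -0.91 in WT on the log2 scale. Scara5 no longer did, at -1.28 to -1.22 in KO and -1.72 to -1.24 in WT. Dpt had a mean of -0.23 in KO and -0.25 in WT, and Dpp4 had -6.93 and -7.06. Pi16 (-0.21 in KO and -0.07 in WT), Clec3b (-0.49 and -0.35) and Cd248 (-3.40 and -3.35) lay lower in KO on this scale, where their CPM means were higher. Ly6a stayed lower in KO, at -1.57 against -0.91. These relative levels are descriptions, with no test.

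Of 18 tested genes of a list for the Pi16-type progenitor fibroblast, 4 were higher and 2 lower, with a median log2 difference of 0.06, beside 6.84% and 7.43% of all genes tested. DESeq2 called 5 higher and 2 lower, beside 1478 and 1497 of all 15710 genes. By limma-voom 7 were higher and 6 lower, beside 2995 and 3482 of all genes. The higher genes were Ackr3, a scavenging chemokine receptor, at 28.7 ± 2.36 against 17.1 ± 3.79 CPM (SD, n = 5 each; adjusted p = 0.00463), Smpd3 at a log2 difference of 0.70, Cd55 at 0.43 and Fndc1 at 0.39. The lower genes were Limch1 at -0.36 and Anxa3 at -0.27, both of which lost their calls when libraries were scaled by total counts alone (adjusted p 0.0731 and 0.0987). Efhd1, the most abundant of the list, was at 0.07 (adjusted p = 0.607). With KO as 1 sample 0 passed and 2 had an unadjusted p under 0.05. Has1 and Bmp7 were too low to be tested.

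Of 12 genes for other adventitial progenitors and hedgehog signalling, 2 were higher and 0 lower, beside 6.84% and 7.43% of all genes tested. At an unadjusted p under 0.05, where no share over all genes was computed, there were 3 higher and 0 lower. DESeq2 called 3 higher and 0 lower, beside 1478 and 1497 of all 15710 genes. By limma-voom 5 were higher and 3 lower, beside 2995 and 3482 of all genes. The mesenchymal transcription factor gene Prrx1 had 131 ± 3.24 against 109 ± 4.84 CPM (adjusted p = 0.00353). Hhip, a decoy for hedgehog ligands, had 23.5 ± 1.57 against 11.6 ± 5.47 CPM (adjusted p = 0.0440), and lost its call without any of the 5 KO libraries (0.0742 to 0.0927) and without WT replicate 2 or 5. Thy1, a surface antigen of fibroblasts, was at a log2 difference of 0.25 (adjusted p = 0.0680), Smo at 0.12 and Eng at -0.16.

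Among 19 tested relatives of the members by protein family, 2 were higher and 0 lower in edgeR, beside 6.84% and 7.43% of all genes tested. At an unadjusted p under 0.05, where no share over all genes was computed, there were 5 higher and 2 lower. DESeq2 called 3 higher and 1 lower, beside 1478 and 1497 of all 15710 genes. By limma-voom 5 were higher and 4 lower, beside 2995 and 3482 of all genes. Colec12, a scavenger receptor of the class of Scara5, had a log2 difference of 0.31 (SE 0.073, adjusted p = 0.0158). Ly6c2 passed at 0.611 against 0.208 CPM, a low level in a gene that shares sequence with Ly6a and Ly6c1. Pi15, of the CAP family like Pi16, had 193 ± 3.31 against 269 ± 75.1 CPM (adjusted p = 0.0800), and Crispld2, of the same family, 378 ± 6.98 against 412 ± 153 CPM (adjusted p = 0.759).

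Markers of other cells were read beside these results, and not all of these lists moved with the groups. Over all genes tested, edgeR called 6.84% higher and 7.43% lower. Of 10 tested lymphocyte genes 7 were higher, and their summed level over all 12 listed genes was 283 to 288 CPM in KO against 13.8 to 32.3 CPM in WT, mostly from Ighm (157 against 9.35 CPM) and Igkc (95.6 against 5.66 CPM). Ly6a, which lymphocytes also make, was lower in KO than in WT replicates 2, 4 and 5 and higher than in WT replicates 1 and 3. Of 9 macrophage genes 2 were higher and 0 lower, among them Adgre1 at 8.82 against 4.85 CPM. Of the 9, 5 had a negative log2 difference, and the median of the list was -0.0042. Over all genes tested, 45.8% had a positive log2 difference and the median was -0.02. Of 10 nerve and Schwann genes 4 were higher. Red cell genes were lower for 5 of 5. The summed level of 7 mesothelial markers was 2.43 to 3.33 CPM in KO and 1.33 to 2.63 CPM in WT, and that of 7 pericyte markers was 5606 to 5699.8 CPM against 2918 to 4892 CPM. Rgs5 alone made up most of the pericyte sum (4436 against 2602 CPM) and was the 1 of the 7 called higher, with a median log2 difference of 0.04 over the list. Which cells of the aorta made the RNA of these 7 genes was not tested, so the sum is not a measure of pericytes alone. Adipocyte markers summed to 873 to 903 CPM in KO and 514 to 2441 CPM in WT. The part of these cells in the results for the 8 genes was not tested.

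By a rule of nearness, 5 genes outside the lists had the profile most like the mean profile of the 8 members, over 6 points (5 WT libraries and the mean of KO) and among 4970 candidates. They were Rab5b, Tmem167b, Ttc37, Aplp2 and Pdxdc1, with root mean square differences of 0.023 to 0.038 on the log2 scale. Single members lay farther from their own mean profile, from 0.077 for Dpt to 0.66 for Ly6a. Rab5b and Aplp2 had 195 against 162 and 1229 against 1066 CPM in KO and WT. Nearness in 6 points is a description of these libraries, with no test.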

How the data were processed

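RNA of mouse aorta was sequenced in 10 libraries. The authors deposited whole-number read counts per Ensembl gene, 1 file per library, per the file headers, with 35667 genes in each. Bowtie 0.12.2 appears in the submitters' processing notes, as do the builds mm9 and mm8, without saying what each was used for. Which tool counted reads, with which annotation and strand, is not given in the sources used here. Identifiers were matched to GENCODE M21 (GRCm38), which found 35562, for coordinates and lengths. Per the labels' protocols, frozen tissue went through Trizol extraction and an Illumina TruSeq kit.

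Counts were fitted with edgeR 4.0.16 (R 4.3.3; TMM, filterByExpr with minimum count 10 and total 15, robust quasi-likelihood F test, no covariate), 5 KO against 5 WT libraries, and adjusted by Benjamini-Hochberg over 15710 genes. Standard errors were computed as log2 difference over root F. The same fit with KO summed assumes that the lone sample varies as WT does. Exact tests used log2 CPM (prior count 2) over 252 splits, with each library taken as a separate sample. The fits were tested on simulated data. Alternatives were other scalings and filters, DESeq2 1.42.0, limma-voom (limma 3.58.1), a replicate block, leaving out each library, and leaving out WT replicates 1 and 3. Intervals cover counting error only where they are called Poisson.

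The members and lists were chosen with earlier results of these data known. Named genes are the 8 members, Ovgp1, the 3 of smallest p and 3 of highest CPM per related list, 1 and 2 per list of another cell type (printed where a result turns on them), and the 5 nearest profiles, taken from tested genes whose log2 CPM averaged 3 or more and with a standard deviation over the 6 points no smaller than that of the members' mean profile. Cd55, Pdgfra, Col1a1, Mfap5, Mfap4, Ly6c1 and Ly6e were named after their values were seen. Gene symbols came from the files.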

Additional observations from a re-analysis of the deposited data

Results flagged for a closer look

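Scara5 had 99.9 CPM in KO replicate 3, below the 104 to 105 CPM of the other 4 KO libraries, and the gap to the nearest was 0.737 of the group's range, above the 0.71 at which a value among 5 is marked as standing apart. It was 1 of 18 groups examined (8 members and Ovgp1 in KO and WT), and chance marks about 1 in 20. The counts of Scara5 in KO varied no more than counting error (chi-square per degree of freedom 0.955).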

How the results depend on the processing

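No member changed direction in any alternative fit; relative to the general fibroblast genes, which is no fit, Pi16, Clec3b and Cd248 did. Leaving out each library in turn gave 1287 to 2678 genes called and 2 to 5 members, and with KO as 1 sample 1 to 5 genes and 0 members. In those fits of 5 with 5 the log2 differences were 0.47 to 0.57 (Cd34), 0.51 to 0.69 (Scara5), 0.11 to 0.17 (Pi16), -0.77 to -0.39 (Ly6a), 0.07 to 0.23 (Clec3b), 0.21 to 0.35 (Dpt), 0.10 to 0.27 (Cd248) and 0.34 to 0.47 (Dpp4). With KO as 1 sample and each WT library left out they were 0.46 to 0.57 for Cd34, 0.51 to 0.69 for Scara5, 0.21 to 0.35 for Dpt and 0.062 at the lowest for Clec3b. KO as 1 sample with all WT libraries called 7 genes and 0 members, and Cd34 (0.49), Scara5 (0.57) and Dpt (0.28) no longer passed; fewer samples enter that fit.

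The limma-voom fit called 6477 genes and 8 members, adding Pi16 (0.17), Ly6a (-0.84), Clec3b (0.11), Cd248 (0.22) and Dpp4 (0.40), and DESeq2 added Pi16 (0.13). Without WT replicates 1 and 3, 4386 genes and 5 members were called, adding Ly6a (-1.02) and Cd248 (0.39). These were the 2 lowest WT libraries of Ly6a and the 2 highest of Cd248, so both differences were bound to widen. Correlations of same-numbered deviations from the group means were -0.040 to 0.042. KO libraries varied little beyond counting error, so these values cannot show whether replicate numbers pair the libraries. The replicate block called 1319 genes and lost Dpt (0.29, adjusted p = 0.0728). The higher share of calls was 47.9%, 51.6% with RLE, 64.0% with upper-quartile factors, 76.0% with total counts and 65.7% without the filter. Differences that reversed, none past the threshold in the comparison of 5 with 5, were Ptgis (0.0074 without WT replicates 1 and 3), Efhd1 (-0.00057 with KO as 1 sample and without WT replicate 4), Crispld2 without WT replicate 2 (0.054, and 0.052 with KO as 1 sample), Erg (-0.070 with limma-voom and -0.10 without WT replicates 1 and 3) and Ly6e. Ly6e was at -0.10 with limma-voom, -0.032 and -0.050 without WT replicate 1 or 3, -0.19 without both (adjusted p = 0.00327), and -0.046 and -0.051 without each with KO as 1 sample. With 1 library left out the far ends were 0.12 for Efhd1, -0.27 for Crispld2 and 0.15 for Ly6e. The cause was not tested. Dpp4 had 26 to 56 counts per library, the fewest of the members.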
